A study of Rattus norvegicus with 12 samples.

Results

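The comparison described here set TGF-beta1-treated kidney tubular cells that received 3D-EVs against cells of the same kind that received 2D-EVs, over every gene in the deposited count table. It used the 3 libraries labelled TGF-beta1 + 3D-EVs and the 3 labelled TGF-beta1 + 2D-EVs, 6 of the 12 libraries of the series. Only 1 gene passed edgeR's quasi-likelihood test: Ccn2, which encodes the secreted matricellular protein CTGF, was higher with 3D-EVs. Fold changes of other abundant genes were small, with narrow intervals for most of them.

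All libraries came from NRK-52E, 1 established line of rat kidney tubular epithelial cells, with the genotype given as WT, grown in DMEM with 10% fetal bovine serum. The 3D-EV cells were given TGF-beta1 for 24 h and then 3D-EVs, extracellular vesicles from an efficient production method, at 500000000 particles/ml for 48 h. The 2D-EV cells had the same TGF-beta1 step and then 2D-EVs, vesicles from a conventional method, at the same number of particles and for the same time. The TGF-beta1 cells had the cytokine without vesicles, and the control cells have no agent named in the labels; each of these groups also had 3 libraries. The labels give TGF-beta1 as 10 µg/ml, a concentration whose unit is in doubt. The cells that released the vesicles, whether TGF-beta1 stayed in the medium during the vesicle step, and when TGF-beta1 and control cells were collected is not stated in the sources used here. No group of TGF-beta1 cells with a vesicle-free carrier is among the labels, so the comparison is between the preparations as added. The labels do not say that the 3 libraries of a group came from separate cultures, so each p-value reflects only how much these libraries vary, which may be technical.

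TGF-beta1 is the best known fibrogenic cytokine of the kidney. It binds a pair of receptor kinases, which phosphorylate Smad2 and Smad3, and in tubular epithelial cells it raises matrix genes, contractile proteins and secreted mediators such as Ccn2. Extracellular vesicles are membrane-bound particles that cells release and take up, carrying proteins, lipids and RNA.

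Depth was similar in both groups, with a library total of 34185568 to 39754319 counts in 3D-EV cells and of 32888125 to 35301983 counts in 2D-EV cells. A count of 3, used as the floor, stood for 0.0755 to 0.0912 CPM, the count of a gene scaled to the size of its library, and floors cover counting error only. Mitochondrially encoded genes took 5.51% to 5.58% of counts in 3D-EV libraries and 5.40% to 5.58% in 2D-EV libraries. The 50 genes with the most counts over all 12 libraries took 16.1% to 16.2% with 3D-EVs and 15.8% to 15.9% with 2D-EVs. The part of this last difference in the results was not tested.

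The label of a tubular epithelial line was set against 12 markers. The keratin Krt8 had 1182, 1154 and 1139 CPM in 3D-EV libraries, against 1184, 1156 and 1192 CPM in 2D-EV libraries, and the brush border enzyme Ggt1 had 303 to 320 CPM with 3D-EVs and 301 to 309.6 CPM with 2D-EVs. The kidney developmental factor Pax2 and the epithelial adhesion protein Epcam were at 0 in all 6 libraries, and Pax8 and Krt18 had under 10 counts in each. Summed over the tested markers, levels were 1462 to 1522 CPM with 3D-EVs and 1476 to 1514 CPM with 2D-EVs. Rps6, a ribosomal protein gene that every cell uses, also had between 0 and 4 counts in these libraries, so a value at or near 0 in this table does not show that a gene was silent.

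Markers of other cell types were read in the same way. Of 12 immune markers, 5 were at 0 in all 6 libraries, among them Ptprc, the pan-leukocyte antigen CD45, and another 2 had under 10 counts. The tested immune markers summed to 247 to 250 CPM in 3D-EV libraries and 221 to 234 CPM in 2D-EV libraries. Most of that sum was Cd14, a receptor for bacterial lipopolysaccharide, at 243 to 245 CPM with 3D-EVs and 218 to 230 CPM with 2D-EVs. Of 12 fibroblast and pericyte markers Dcn and Kcnj8 were at 0, another 3 were under 10 counts, and the tested ones summed to 727 to 767 CPM with 3D-EVs and 706 to 719 CPM with 2D-EVs. Most of that sum was Mfap5, a microfibril-associated protein gene, at 567.9, 562 and 598.5 CPM with 3D-EVs and 551.8, 545.7 and 533.2 CPM with 2D-EVs. By gene, 2 of 5 tested fibroblast and pericyte markers had a log2 fold change above 0, and the median was −0.0127. The 3D-EV libraries lay above the 2D-EV libraries for 1 of these markers and below for 2. Among the latter, Cspg4 had 3.23, 2.88 and 2.89 CPM with 3D-EVs, against 4.14, 4.05 and 4.27 CPM with 2D-EVs. Its log2 fold change was −0.47 (adjusted p = 0.618, edgeR quasi-likelihood test). Endothelial markers summed to 15.4 to 17.2 CPM with 3D-EVs and 15.6 to 17.1 CPM with 2D-EVs. The part of any of these sums in the results was not tested. The circadian clock list, read as a check on harvest time, had 6 of 16 tested genes with a log2 fold change above 0 and a median of −0.02.

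Of 14184 genes tested with the edgeR quasi-likelihood test, 1 was called at an adjusted p below 0.05, or 0.00705%. It was higher in 3D-EV cells, and 0 genes were called lower. At an unadjusted p below 0.05 there were 978 genes (6.9%), where 5% of those tested is 709.2. Of these, 469 were higher with 3D-EVs (3.31%) and 509 lower (3.59%). The 3 libraries of one group lay beyond the 3 of the other for 1610 genes (11.4%), with 3D-EV libraries above for 804 (5.67%) and below for 806 (5.68%). If libraries fell in random order, the share expected with 3 against 3 would be 0.1. Lack of overlap in genes named for a small p is therefore given only as a description. DESeq2 called 21 genes, 16 higher and 5 lower with 3D-EVs, and limma-voom 2, both higher. Over all genes 49.7% had a log2 fold change above 0, and the median was −0.000694.

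The intervals show what size of difference these libraries leave room for. Among 9183 genes averaging at least 10 CPM over the 6 libraries, the 95% interval of the fold change lay within 1.5-fold either way for 9064 (98.7%) and within 1.2-fold for 7573 (82.5%). Over all genes tested the share within 1.5-fold was 76.3%. Of the 9183 genes, 15 had a fitted log2 fold change beyond 0.58 in either direction, and Usp4, described last among these results, was the 1 beyond 1.

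**Figure D1:**
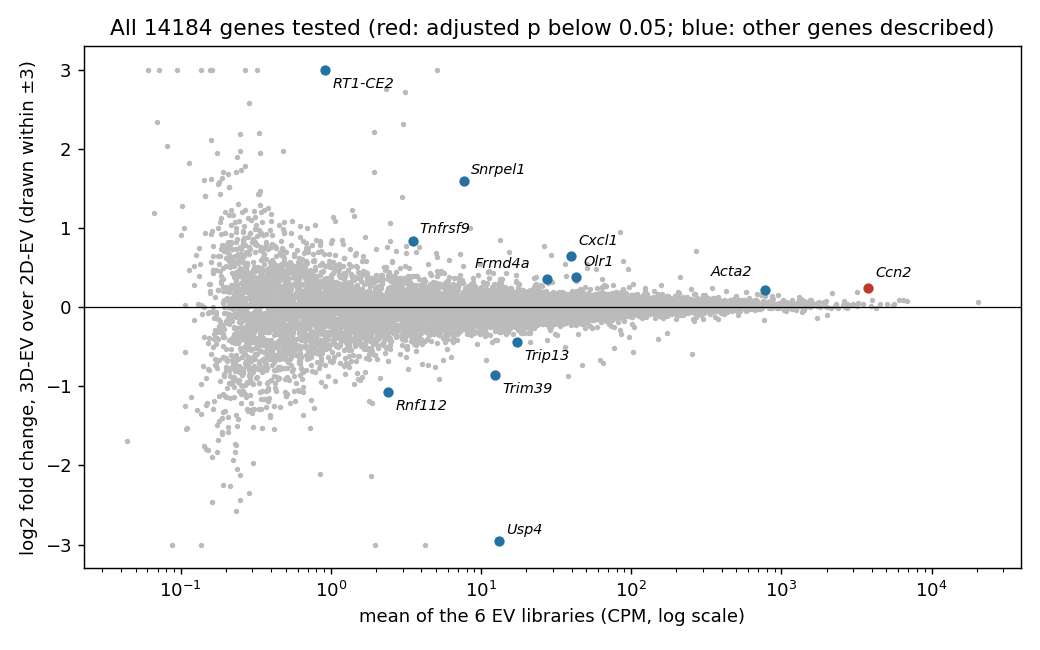
Each point is 1 of the 14184 genes tested, placed by its mean over the 6 libraries of 3D-EV and 2D-EV cells (CPM, log axis) and its log2 fold change, 3D-EV over 2D-EV, with values beyond 3 drawn at 3. Ccn2, the 1 gene with an adjusted p below 0.05 by edgeR, lies far to the right at 0.24, and the cloud narrows as the mean level grows.

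Ccn2 is a direct target of Smads and of the YAP and TEAD transcription factors and is used widely as a readout of profibrotic signalling. Because its promoter is a classic site of TEAD binding, the 250 bases before its transcription start are printed with those of Acta2, the gene with the next smallest p. The sequences are from RefSeq on the rat build GRCr8, 5′ to 3′ on the minus strand, at chr1:22624615-22624864 for Ccn2 and chr1:241172504-241172753 for Acta2. Capitals mark matches to the TEAD motif GGAATG and to the Smad motif CAGACA, searched on both strands and chosen with the results known.
Ccn2: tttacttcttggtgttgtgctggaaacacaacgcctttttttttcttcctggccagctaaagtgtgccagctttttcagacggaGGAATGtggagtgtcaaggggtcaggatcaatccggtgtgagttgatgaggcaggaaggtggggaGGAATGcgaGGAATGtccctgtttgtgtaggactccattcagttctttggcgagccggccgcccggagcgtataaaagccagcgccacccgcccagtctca
Acta2: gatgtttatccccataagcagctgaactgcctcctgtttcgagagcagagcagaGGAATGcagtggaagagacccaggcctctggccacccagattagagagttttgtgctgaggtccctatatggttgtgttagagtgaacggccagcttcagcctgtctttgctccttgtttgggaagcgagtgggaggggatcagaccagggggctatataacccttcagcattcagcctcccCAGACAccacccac

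The Ccn2 window held 3 GGAATG matches, ending 161, 96 and 87 bases before the start, and no match to CAGACA. The Acta2 window held 1 GGAATG match and 1 CAGACA match, the second ending 9 bases before the start. GGAATG occurred in 11.8% of all 27457 RefSeq promoters of this length and at least 3 times in 25 of them (0.0911%), and CAGACA in 16.9%. The AP-1 motif TGANTCA, found in 6.36% of promoters, had no match in either window. A match describes letters in a window and does not show a bound site. Lack of a match does not show that a factor has no site there.

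Ccn2 had 4066, 4139 and 4012 CPM in 3D-EV libraries, against 3385, 3438 and 3530 CPM in 2D-EV libraries. The groups did not overlap, and the highest 2D-EV library was below the lowest 3D-EV library. The means were 4072 ± 63.7 CPM with 3D-EVs and 3451 ± 73.2 CPM with 2D-EVs (SD, n = 3 each). The fitted difference was 0.24 on the log2 scale (SE 0.0254, 95% interval 0.18 to 0.29), a 1.18-fold higher level with 3D-EVs, with an adjusted p of 0.00189 by the edgeR quasi-likelihood test. Ccn2 was called in the same direction in all 14 alternative analyses, with adjusted p between 2.24e-14 and 0.0409. In RNA of a whole culture, a larger share of cells making a transcript and more transcript per cell cannot be told apart, here and for the genes that follow.

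TGF-beta1 cells without vesicles had 4115, 4075 and 3990 CPM of Ccn2 and control cells 2832, 2765 and 2871 CPM. The 3D-EV libraries overlapped the TGF-beta1 libraries, and the 2D-EV libraries lay between TGF-beta1 and control. Against TGF-beta1 cells, the log2 fold change was −0.23 with 2D-EVs (adjusted p = 0.0024, edgeR quasi-likelihood test) and 0.00 with 3D-EVs (adjusted p = 0.986). Both of these comparisons use the same 3 TGF-beta1 libraries. The comparison of 2D-EV with TGF-beta1 cells called 4 genes (0.0282%), all lower with 2D-EVs, namely Ccn2, Acta2, Olr1 and Frmd4a. That of 3D-EV with TGF-beta1 cells called 0 by the same test. At an unadjusted p below 0.05 there were 1007 genes (7.1%) with 2D-EVs and 1027 (7.24%) with 3D-EVs against TGF-beta1 cells.

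**Figure D2:**
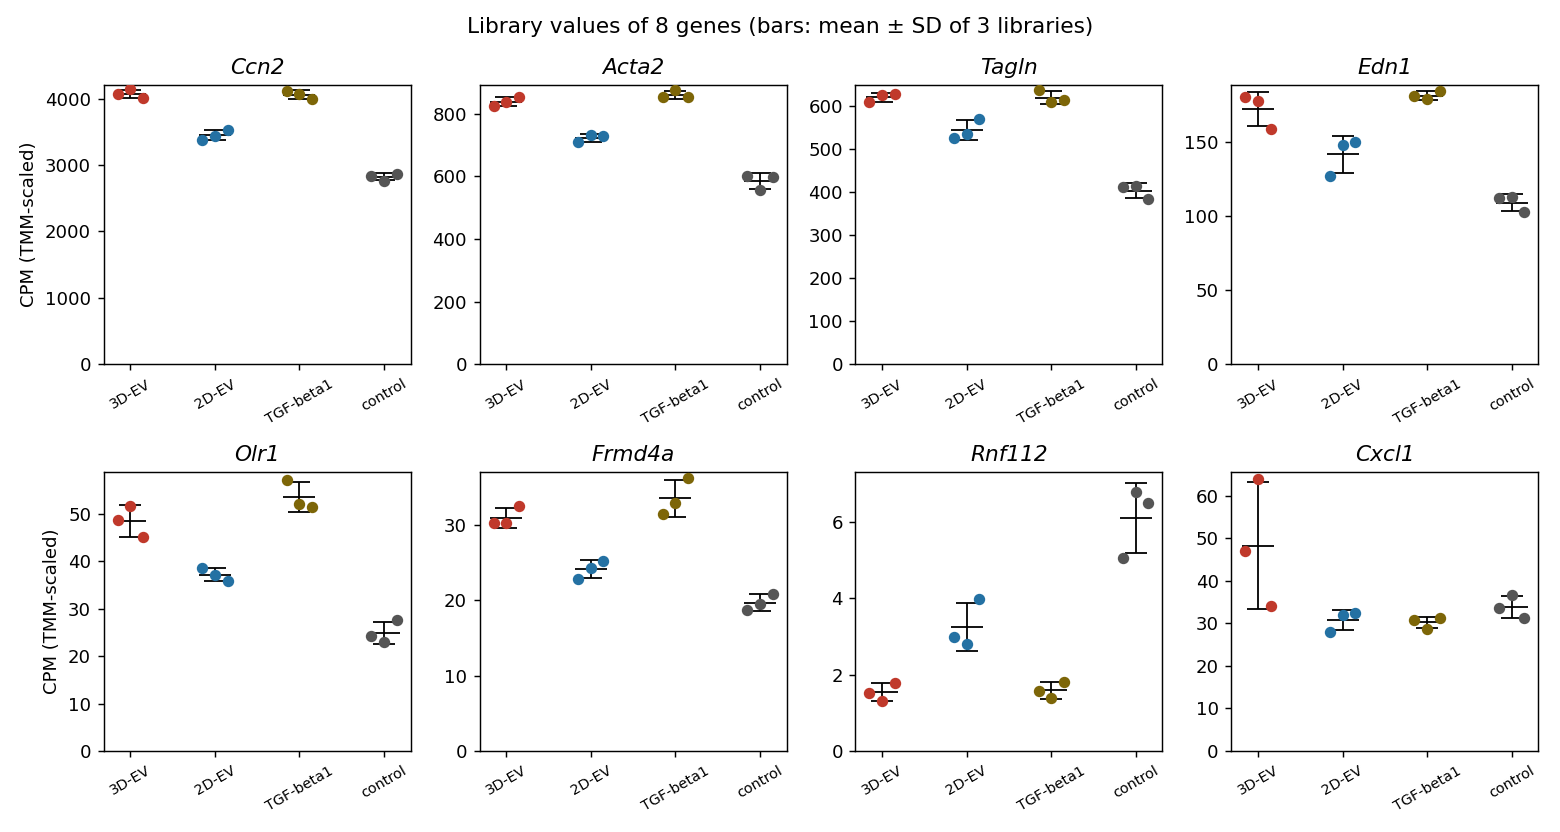
CPM of each library for 8 genes in 3D-EV, 2D-EV, TGF-beta1 and control cells, with bars for the mean ± SD of 3 libraries and every axis starting at 0. For Ccn2, Acta2 and Tagln the 3D-EV libraries lie close to the TGF-beta1 libraries and above the 2D-EV libraries. For Edn1 they also lie above the 2D-EV libraries, but 3D-EV replicate 3 (159 CPM) is below the TGF-beta1 libraries (181, 179 and 185 CPM). Ccn2 is the 1 gene of the 8 with an adjusted p below 0.05 by edgeR between 3D-EV and 2D-EV cells.

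The genes ranked behind Ccn2 by p did not pass the threshold and are given as values. Acta2, which encodes smooth muscle actin and marks myofibroblasts, had 826, 837 and 853 CPM in 3D-EV libraries, against 709, 731 and 730 CPM in 2D-EV libraries. The groups did not overlap, and TGF-beta1 cells had 853, 876 and 854 CPM and control cells 601, 555 and 599 CPM. The log2 fold change was 0.21 (95% interval 0.14 to 0.28), with an adjusted p of 0.0698 by the edgeR quasi-likelihood test, 0.0364 by limma-voom and 1.45e-06 by DESeq2. Its call thus depended on the tool, and also on the filter, since edgeR without a filter on low counts called it (adjusted p = 0.00606). Tagln, Edn1, Olr1, Frmd4a, Prss23 and Cald1 were called by DESeq2 and not by edgeR as reported. Of these, edgeR without that filter called Olr1 (adjusted p = 0.0292).

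Edn1, which encodes the vasoconstrictor endothelin-1, had 181, 178 and 159 CPM with 3D-EVs, against 127, 148 and 150 CPM with 2D-EVs, a log2 fold change of 0.28 with a 95% interval of 0.15 to 0.41. The groups did not overlap, and the adjusted p was 0.328 by the edgeR quasi-likelihood test and 0.0024 by DESeq2.

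Olr1, the LOX-1 receptor for oxidised low-density lipoprotein, had 48.7, 51.7 and 45.2 CPM in 3D-EV libraries, against 38.6, 37.1 and 35.9 CPM in 2D-EV libraries. Frmd4a, a scaffold protein of cell polarity, had 30.2, 30.2 and 32.5 CPM with 3D-EVs, against 22.9, 24.3 and 25.2 CPM with 2D-EVs. Neither gene's groups overlapped, and the log2 fold change was 0.38 for Olr1 and 0.36 for Frmd4a, with an adjusted p of 0.159 each (edgeR). The serine protease gene Prss23 had 132, 135 and 132 CPM with 3D-EVs, against 117, 115 and 115 CPM with 2D-EVs, a log2 fold change of 0.20 with the same adjusted p. Prss23 differed less between TGF-beta1 and control cells, at a log2 fold change of 0.14, than Olr1 did, at 1.11.

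Several low-level transcripts had larger ratios and wide intervals. ENSRNOG00000066436, which the files do not pair with a gene name, had 3.46, 3.02 and 2.41 CPM in 3D-EV libraries, against 0.758, 1.08 and 0.885 CPM in 2D-EV libraries. Its log2 fold change was 1.71, with a 95% interval of 1.13 to 2.29 and an adjusted p of 0.0783 (edgeR). Snrpel1, a pseudogene in the RefSeq table with near copies of the splicing protein gene Snrpe elsewhere in the genome, had 7.97, 16.2 and 10.4 CPM with 3D-EVs, against 2.68, 3.94 and 4.88 CPM with 2D-EVs. Reads can be split between such copies, so this value is uncertain.

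RT1-CE2, a class I major histocompatibility gene, had 61, 67 and 69 counts in the 3D-EV libraries and 0 in all 3 2D-EV libraries. Against a floor of 3 counts over the group, it was at least 61.5-fold higher with 3D-EVs, and its adjusted p was 0.159 by edgeR. It was also at 0 in control replicate 2, while the other control and TGF-beta1 libraries had 58 to 73 counts, and it belongs to a family of near-identical genes. Whether the authors' counting set these zeros was not tested. ENSRNOG00000069649, with no gene name in the files, had 20, 22 and 16 counts with 3D-EVs and 0 with 2D-EVs, and was at 0 in TGF-beta1 replicate 3 and control replicate 1 as well.

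Among genes lower with 3D-EVs, edgeR called 0 and DESeq2 called 5, among them Rnf112 (adjusted p = 0.00224) and Trip13 (adjusted p = 0.0161). Without a filter on low counts edgeR also called Rnf112 (adjusted p = 0.0338). Rnf112, an E3 ubiquitin ligase gene, had the smallest p of these by edgeR, with 1.53, 1.31 and 1.79 CPM in 3D-EV libraries, against 2.97, 2.80 and 3.97 CPM in 2D-EV libraries. The groups did not overlap, and the log2 fold change was −1.07 (95% interval −1.49 to −0.66, adjusted p = 0.159, edgeR). TGF-beta1 cells had 1.58, 1.38 and 1.81 CPM of Rnf112 and control cells 5.06, 6.77 and 6.495 CPM.

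Trip13, an ATPase of the spindle checkpoint, had 12.5, 14.8 and 17.0 CPM with 3D-EVs, against 20.5, 18.7 and 20.9 CPM with 2D-EVs. Its log2 fold change was −0.45, and that of Spc24, a kinetochore protein, was −0.36. Chka, choline kinase, had 30.3, 31.7 and 30.7 CPM with 3D-EVs, against 35.6, 35.6 and 38.5 CPM with 2D-EVs, a log2 fold change of −0.24. The death receptor gene Tnfrsf25 was at −0.54, the small GTPase regulator gene Arhgap30 at −0.26 and Nktr, a cyclophilin-related gene, at −0.22, with adjusted p between 0.346 and 0.598 for these 6 genes (edgeR).

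The TGF-beta1 response gave a second way to read the comparison, since the TGF-beta1 and control libraries that define it are not in the contrast of 3D-EV with 2D-EV cells. TGF-beta1 raised 1676 genes (11.8% of those tested) and lowered 1448 (10.2%) relative to control at an adjusted p below 0.05 (edgeR). Of the raised genes, 63.3% had a log2 fold change above 0 with 3D-EVs against 2D-EVs, compared with 49.7% of all genes tested. The median was 0.02, and 1 raised gene, Ccn2, was called by edgeR. The 3D-EV libraries lay above the 2D-EV libraries for 218 of them (13%) and below for 50 (2.98%), beside 5.67% and 5.68% of all genes. Higher with 3D-EVs at an unadjusted p below 0.05 were 169 raised genes (10.1%), and 33 were lower (1.97%), beside 3.31% and 3.59% of all genes.

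The genes that TGF-beta1 lowered leaned the other way in their counts. A log2 fold change above 0 was found for 38% of them, the median was −0.02, and 0 were called in either direction (edgeR). At an unadjusted p below 0.05, 36 were higher with 3D-EVs (2.49%) and 116 lower (8.01%), beside 3.31% and 3.59% of all genes. The 3D-EV libraries lay below the 2D-EV libraries for 159 (11%) and above for 74 (5.11%), beside 5.68% and 5.67% of all genes. Among the 11060 genes with no TGF-beta1 call, 49.2% were above 0 and the median was −0.002.

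Each library was read on its own as the median, over a set, of log2 CPM minus the mean of the 6 libraries. Over the raised genes these values were 0.0141, 0.0131 and 0.00773 in 3D-EV libraries, against −0.0194, −0.00643 and −0.00496 in 2D-EV libraries. Over the lowered genes they were −0.00155, −0.0268 and −0.0068 with 3D-EVs, against 0.0270, 0.00997 and 0.00119 with 2D-EVs. The groups did not overlap in either set, and the shifts were a few hundredths of a log2 unit. Among the 307 genes raised by at least 0.5 on the log2 scale the groups did not overlap either. The values were 0.033, 0.041 and 0.015 with 3D-EVs, against −0.034, −0.032 and −0.027 with 2D-EVs. Among the 306 genes lowered by at least 0.5 the groups did overlap, at −0.0366, −0.0675 and 0.00804 with 3D-EVs, against 0.0637, 0.0668 and −0.00784 with 2D-EVs. Across the 9183 genes of at least 10 CPM, the fold changes of the 2 contrasts correlated with Pearson's r = 0.169, and across all 14184 genes tested with r = 0.0837. Genes share libraries and are not independent replicates, so this is a description.

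**Figure D3:**
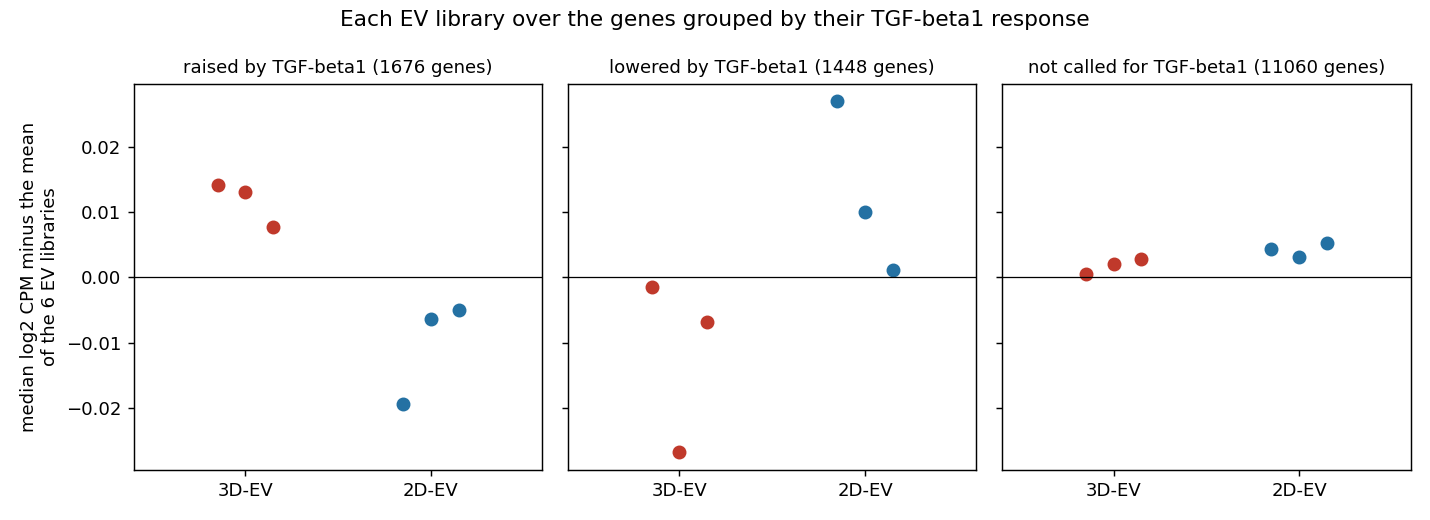
Each point is 1 library of 3D-EV or 2D-EV cells, placed by the median over a gene set of log2 CPM minus the mean of the 6 libraries. Over the 1676 genes raised by TGF-beta1 the 3D-EV libraries lie above 0 and the 2D-EV libraries below; over the 1448 lowered genes the order is the opposite, and all shifts are under 0.03.

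Of 31 tested members of the list of TGF-beta pathway genes and targets, edgeR called 1 higher (Ccn2) and 0 lower. The list's median log2 fold change was 0.04, with 74.2% of members above 0. Members higher at an unadjusted p below 0.05 numbered 4 (among them Ccn2, Tgfb2 and Tgfb1), beside 3.31% of all genes. The ligand gene Tgfb1 had 182, 190 and 194 CPM in 3D-EV libraries, against 178, 165 and 178 CPM in 2D-EV libraries, and its log2 fold change of 0.12 had a 95% interval of 0.02 to 0.22. The ligand gene Tgfb2 was at 0.13, with an interval of 0.05 to 0.21. The adjusted p was 0.654 for Tgfb1 and 0.598 for Tgfb2 (edgeR). Smad3, a receptor-activated Smad, was at 0.12 with an interval of −0.01 to 0.24, the inhibitory Smad7 at 0.07 (−0.03 to 0.16) and Pmepa1, an inhibitor of Smad signalling, at 0.06 (−0.03 to 0.14).

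The mesenchymal and contractile list had 28 tested members, of which edgeR called 0, 82.1% were above 0 and the median was 0.07. DESeq2 called Acta2 (adjusted p = 1.45e-06), Tagln (0.000644), Cald1 (0.00779) and Actn1 (0.05 as rounded) higher, and limma-voom Acta2 (0.0364). At an unadjusted p below 0.05, 9 were higher with 3D-EVs and 0 lower, beside 3.31% and 3.59% of all genes. TGF-beta1 itself raised 14 of the 28 and lowered 0, beside 11.8% and 10.2% of all genes. Tagln, the actin-binding protein transgelin, had 608, 624 and 627 CPM with 3D-EVs, against 526, 535 and 569 CPM with 2D-EVs, and its log2 fold change was 0.19 (95% interval 0.11 to 0.27, adjusted p = 0.159, edgeR). Caldesmon, Cald1, had 916, 909 and 876 CPM with 3D-EVs, against 830.5, 806 and 823 CPM with 2D-EVs. Its log2 fold change was 0.14, and that of the actin crosslinker Actn1 was 0.17. Vim, the intermediate filament vimentin, was at 0.03 with an interval of −0.03 to 0.10, and its groups overlapped.

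YAP and mechanical targets had 22 tested members, with Ccn2 called by edgeR, 68.2% above 0 and a median of 0.05. The list shares Ccn2 with the TGF-beta list. Ankrd1, a YAP target of the muscle ankyrin repeat family, had 69.8, 78.3 and 68.4 CPM in 3D-EV libraries, against 49.8, 55.8 and 63.7 CPM in 2D-EV libraries, a log2 fold change of 0.36 (95% interval 0.15 to 0.56). Its adjusted p was 0.598 (edgeR). Ccn1, a matricellular relative of Ccn2, had 865, 845 and 775 CPM with 3D-EVs, against 657, 776 and 755 CPM with 2D-EVs. These groups overlapped, by the third 3D-EV library and the second 2D-EV library. The coactivator gene Yap1 itself was at −0.01, with an interval of −0.07 to 0.05.

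The fibrillar and interstitial matrix list had 25 tested members, 0 called by edgeR, 56% above 0 and a median of 0.01. Of its members, 3 were higher and 1 lower at an unadjusted p below 0.05, beside 3.31% and 3.59% of all genes. Fn1, fibronectin, had 1001, 998 and 975.02 CPM with 3D-EVs, against 953, 918 and 810 CPM with 2D-EVs, and a log2 fold change of 0.15 (95% interval 0.03 to 0.27). Its adjusted p was 0.618 (edgeR). Thbs1, the TGF-beta-activating thrombospondin, was at 0.17, with an interval of 0.08 to 0.27 and an adjusted p of 0.0494 by DESeq2. Among the collagen genes, Col1a1 had 359, 358 and 389 CPM with 3D-EVs, against 403, 362 and 309.5 CPM with 2D-EVs, with groups that overlapped and a log2 fold change of 0.04 (−0.15 to 0.24). Col3a1 was at −0.09 with an interval of −0.32 to 0.15. In the basement membrane list edgeR called 0 of 18 tested members, 83.3% were above 0 and the median was 0.05, also with Col4a3, at 0 in the 2D-EV libraries, set to its bound. By library, its medians were 0.0560, −0.0160 and 0.0268 with 3D-EVs, against 0.0187, 0.0202 and −0.0906 with 2D-EVs. Replicate 3 of the 2D-EV group stood apart, and its other libraries lay within the 3D-EV range.

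**Figure D4:**
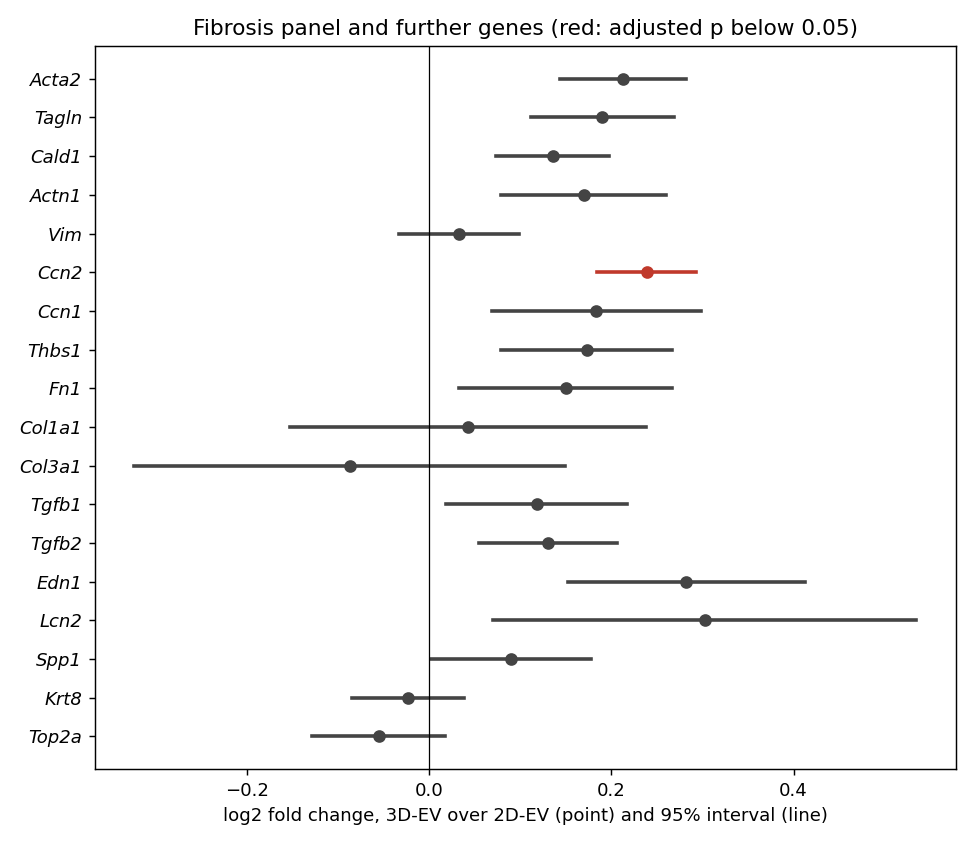
Points are log2 fold changes, 3D-EV over 2D-EV, and lines their 95% intervals, for the fibrosis panel and further genes. The intervals of Ccn2 (0.18 to 0.29) and Acta2 (0.14 to 0.28) lie above 0, while those of Vim, Col1a1, Col3a1, Krt8 and Top2a contain 0; Ccn2 alone has an adjusted p below 0.05 by edgeR's quasi-likelihood test.

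The tubular injury list had 18 tested members, 0 called by edgeR, 88.9% above 0 and a median of 0.07. Of its members, 8 were higher and 0 lower at an unadjusted p below 0.05, beside 3.31% and 3.59% of all genes. TGF-beta1 itself raised 8 of the 18 and lowered 2, beside 11.8% and 10.2% of all genes. Spp1, osteopontin, had 6414, 6567 and 6918 CPM in 3D-EV libraries, against 6490, 6172 and 6029 CPM in 2D-EV libraries, a log2 fold change of 0.09 with overlapping groups. Lcn2, the urinary injury marker lipocalin-2, had 11.1, 13.7 and 11.6 CPM with 3D-EVs, against 11.3, 8.72 and 9.58 CPM with 2D-EVs, a log2 fold change of 0.30 (95% interval 0.07 to 0.53). Its groups overlapped, and its adjusted p was 0.618 (edgeR). The injury marker Havcr1, KIM-1, had 4, 0 and 0 counts with 3D-EVs and 0 in each 2D-EV library, too few to test. The epithelial cadherin Cdh1 had 0.0595 to 0.256 CPM with 3D-EVs and 0.170 to 0.408 CPM with 2D-EVs, levels at which no difference was detectable.

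In the list of inflammation and NF-kB genes, which shares Cxcl1 and Ccl2 with the injury list, edgeR called 0 of 24 tested members, 75% were above 0 and the median was 0.09. At an unadjusted p below 0.05, 7 were higher with 3D-EVs and 0 lower, beside 3.31% and 3.59% of all genes. The neutrophil chemokine Cxcl1 had 47.0, 63.8 and 34.1 CPM in 3D-EV libraries, against 28.02, 32.0 and 32.4 CPM in 2D-EV libraries. The groups did not overlap, and the spread was wider among the 3D-EV libraries. Its log2 fold change was 0.65 (95% interval 0.32 to 0.98, adjusted p = 0.457, edgeR). Without 3D-EV replicate 3 the log2 fold change was 0.85 and the adjusted p 0.017, and without 3D-EV replicate 2 these were 0.40 and 0.916.

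The monocyte chemokine Ccl2 had 10.8, 16.3 and 7.59 CPM with 3D-EVs, against 7.93, 8.52 and 7.39 CPM with 2D-EVs. Ccl20, a ligand of CCR6, had 2.93, 5.24 and 1.82 CPM with 3D-EVs, against 1.49, 1.25 and 2.05 CPM with 2D-EVs. Both genes' groups overlapped. Of the 7 members at an unadjusted p below 0.05, 6 were highest in 3D-EV replicate 2 and 1 in 3D-EV replicate 1. Relb, an NF-kB subunit, was the exception, at 6.55, 5.78 and 6.16 CPM with 3D-EVs, against 4.58, 5.32 and 3.78 CPM with 2D-EVs. Tnfrsf9, a costimulatory receptor gene outside the lists that was picked after its values were seen, had 3.92, 5.47 and 4.08 CPM with 3D-EVs, against 2.07, 2.44 and 3.02 CPM with 2D-EVs.

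In the lysosome and autophagy list 28 of 31 tested members (90.3%) were above 0, with a median of 0.06 and 0 called by edgeR. Of the members, 6 were higher and 0 lower at an unadjusted p below 0.05, beside 3.31% and 3.59% of all genes. The 3D-EV libraries lay above the 2D-EV libraries for 9 members and below for 0, beside 5.67% and 5.68% of all genes. TGF-beta1 itself raised 13 of the 31 and lowered 0, beside 11.8% and 10.2% of all genes. Read by library as above, the list's medians were 0.00664, 0.0107 and 0.0667 in 3D-EV libraries, against 0.0179, −0.00179 and −0.0972 in 2D-EV libraries. These groups overlapped, with 3D-EV replicate 3 highest and 2D-EV replicate 3 lowest, each apart from the rest. Ctsb, the protease cathepsin B, had 1603, 1620 and 1619 CPM with 3D-EVs, against 1549, 1537 and 1448 CPM with 2D-EVs, a log2 fold change of 0.10 (95% interval 0.03 to 0.16). Cd63, a tetraspanin of lysosomes and exosomes, was at 0.09. The adjusted p was 0.618 for both genes (edgeR). Of 36 tested genes of vesicle uptake and exosome formation, 66.7% were above 0 with a median of 0.02 and 0 called by edgeR. Among them Itgav, the integrin subunit alpha V, was at 0.08 (0.02 to 0.14, adjusted p = 0.618, edgeR).

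The heat shock list had 19 of 20 tested members above 0 with a median of 0.03, and oxidative phosphorylation 85.2% of 27 with a median of 0.03. Ribosomal protein genes had 88.9% of 18 above 0, also with a median of 0.03. None of these lists had a gene called by edgeR, and in each the summed CPM of 3D-EV and 2D-EV libraries overlapped. TGF-beta1 raised 10 of the 20 heat shock genes, 2 of the 27 oxidative phosphorylation genes and 1 of the 18 ribosomal protein genes. The share raised was 11.8% over all genes.

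The mitosis, cholesterol and fatty acid synthesis lists had medians just below 0. The mitosis list had 30 tested members, 0 called by edgeR, 23.3% above 0 and a median of −0.02. Of its members, 0 were higher and 2 lower at an unadjusted p below 0.05, beside 3.31% and 3.59% of all genes. TGF-beta1 lowered 21 of the 30, beside 10.2% of all genes. Cdc20, an activator of the anaphase-promoting complex, had 101, 95.05 and 95.2 CPM with 3D-EVs, against 102, 101 and 114 CPM with 2D-EVs, a log2 fold change of −0.13 (95% interval −0.23 to −0.02). The kinesin gene Kif2c was at −0.17, and the adjusted p was 0.675 for Cdc20 and 0.618 for Kif2c (edgeR). In the cholesterol list 29.6% of 27 tested genes were above 0 and the median was −0.01. TGF-beta1 raised 22 of the 27, beside 11.8% of all genes. Mvk, mevalonate kinase, had 68.0, 66.8 and 74.9 CPM with 3D-EVs, against 74.2, 77.4 and 83.3 CPM with 2D-EVs. Fatty acid synthesis had 30% of 20 tested members above 0 and a median of −0.04, and fatty acid oxidation and peroxisome genes had 57.1% of 28 above 0 and a median of 0.01, with 0 called by edgeR in any of these lists.

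**Figure D5:**
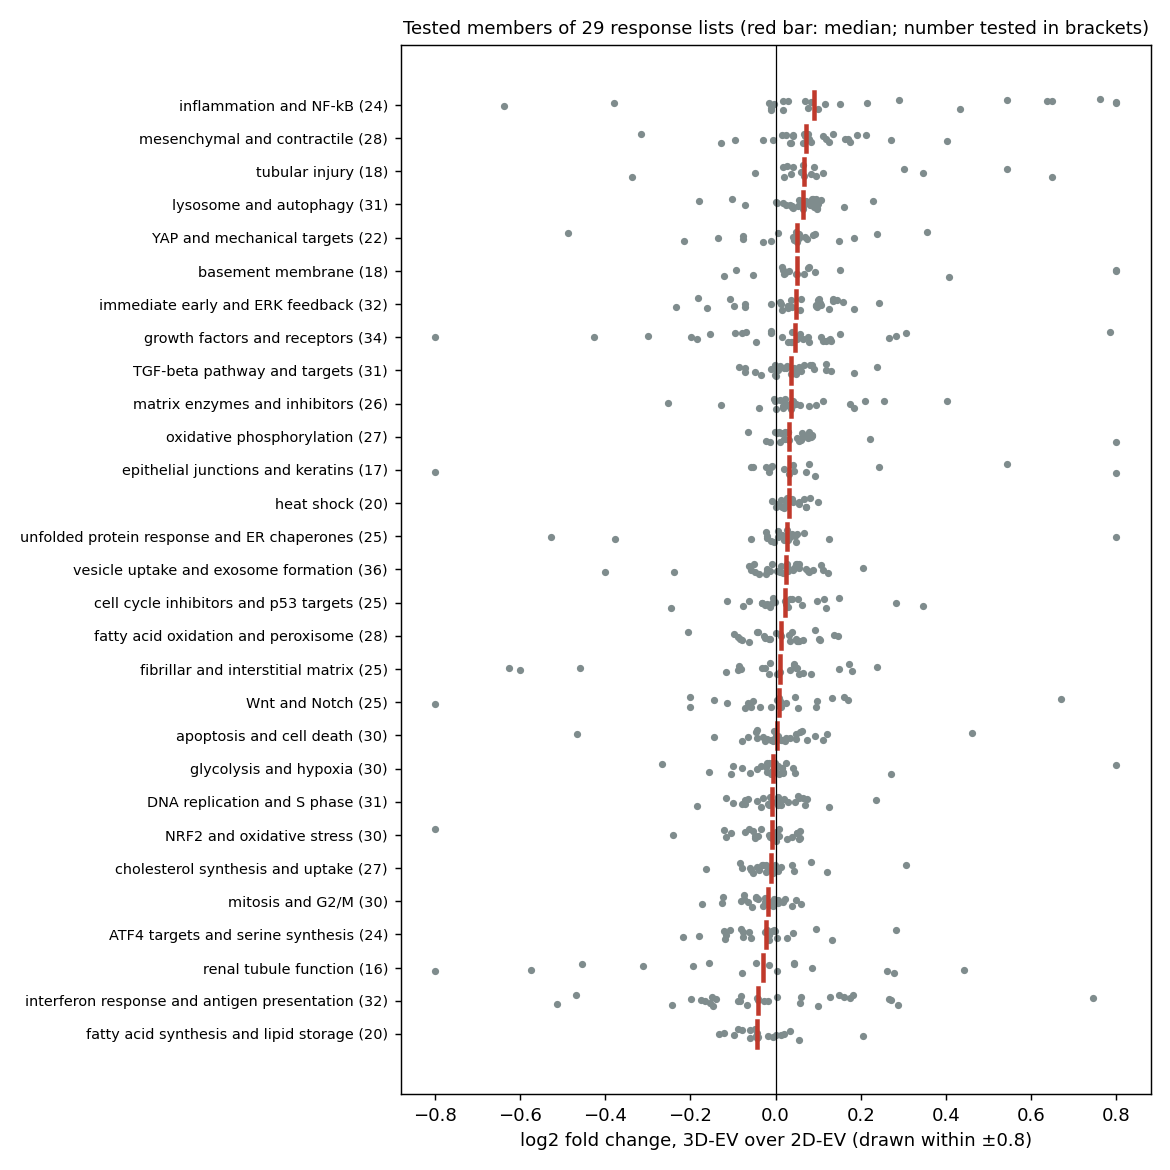
Each grey point is a tested gene of 1 of 29 response lists, placed by its log2 fold change, 3D-EV over 2D-EV, with values beyond 0.8 drawn at 0.8, and red bars are list medians. Medians run from −0.04 to 0.09, beside −0.000694 over all genes tested, and Ccn2 is the 1 member called by edgeR, in the TGF-beta and YAP lists.

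Some genes took 1 of a few separate levels in single libraries of a group. Among the 9183 genes of at least 10 CPM, 24 had a highest library at least 3 times the lowest within the 3D-EV or the 2D-EV group. Usp4, a deubiquitinase gene with the largest fitted change of the 9183, had 3.77, 3.05 and 2.05 CPM with 3D-EVs, against 3.44, 36.2 and 29.9 CPM with 2D-EVs. Its control libraries had 5.46, 51.2 and 41.4 CPM. Mterf2, a mitochondrial transcription termination factor gene, had 131, 6.78 and 9.11 CPM with 3D-EVs, against 4.96, 110 and 127 CPM with 2D-EVs, so its libraries split within both groups. These genes were named after their values were seen.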

How the data were processed

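RNA of NRK-52E cells was sequenced in 12 libraries, 3 per group, of which 6 form the comparison. Per the labels' protocols, RNA was extracted with TRIzol, treated with DNase I and made into libraries with a Yeasen Hieff kit. Per the submitters' processing notes the rat build was mRatBN7.2 and fastp, HISAT2, StringTie and DESeq2 were used; tool versions, strand handling and counting settings are not stated in the sources used here. The authors deposited whole-number counts without normalisation for 24660 genes. The joint table and the 12 tables of single libraries held identical values, and 0 columns stayed unused. A value of 1 stood in 1514 cells and of 2 in 5687, so small counts do not follow plain counting of reads. Of the gene names, 16794 matched a RefSeq table of another build (GRCr8), used for names and promoter sequences; 3258 names were Ensembl identifiers and 1631 assembled transcripts.

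In R 4.3.3 with edgeR 4.0.16, all 12 libraries entered a fit of group means with TMM factors of 0.983 to 1.03, after filterByExpr with a minimum count of 10 (14184 genes). Contrasts were tested by the quasi-likelihood F-test with Benjamini-Hochberg adjustment over all genes tested and a threshold of 0.05. CPM are TMM-scaled. The scripts were tested on simulated data. Alternatives used limma 3.58.1 (voom), DESeq2 1.42.0, other filters and scaling, a replicate block and left-out libraries. Libraries of a group differed by 6.56 to 10.4 times the counting variance. The labels name no sequencing batch, and the reported analysis keeps every library.

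The members, 29 response lists, 11 marker lists, motifs and named-gene rule were chosen with earlier results of these data known. Named genes were those called (where fewer than 10 passed in a direction, also the 10 with the smallest p), the 10 smallest p, a fibrosis panel (Ccn2, Tgfb1, Acta2, Vim, Fn1, Col1a1, Cdh1, Lcn2 and Havcr1), and up to 2 members per list by p, some left out from the lower end; some named genes are not reported here. Other genes were picked after their values were seen, among them Cald1, Actn1, Thbs1, Ccn1, Ccl2, Ccl20, Smad3, Yap1 and the genes drawn in the plot of intervals. Sets of TGF-beta1-raised and TGF-beta1-lowered genes came from the contrast of TGF-beta1 with control in the same fit, which shares its variance estimates with the comparison.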

Additional observations from a re-analysis of the deposited data

How the results depend on the processing

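Ccn2 kept its direction and its call in all 14 alternatives, with a log2 fold change of 0.226 to 0.256. The count of called genes was small and depended on the tool and the filter. It was 1 in the analysis reported, and 2 (2 higher, 0 lower) with the 6 libraries of 3D-EV and 2D-EV cells alone in the fit, which added RT1-CE2. Limma-voom gave 2 (2 higher), adding Acta2. Without a filter on low counts it was 8 (7 higher, 1 lower). DESeq2 gave 21 (16 higher, 5 lower), and 19 (14 higher, 5 lower) without its independent filtering, a setting added after seeing the data. Leaving out 1 library at a time gave 1 to 3 calls (1 to 3 higher, 0 lower); the 3 came without 3D-EV replicate 3, which added Cxcl1 among others. Of TGF-beta1-raised genes, 1 was called higher, against 4 without a filter, 12 by DESeq2, 10 by DESeq2 without independent filtering, 2 by limma-voom and 1 to 2 with 1 library left out. Of TGF-beta1-lowered genes, 0 were called lower, against 1 without a filter and 1 by DESeq2 with or without independent filtering. Median-of-ratios scaling and a filter at a mean of 1 CPM left every one of these counts at its reported value. The cause of these differences was not tested.

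With replicate number as a block 2 genes were called (2 higher), adding Snrpel1 at an adjusted p of 0.0361, and Ccn2 had 0.0315. The labels do not tie the numbers to shared cultures: over the 18 pairs of same-numbered libraries the residuals correlated by −0.133 to 0.145, 3 above 0.1. The mean correlation with libraries of the other groups was also taken for each of the 3 numbers. It was highest at a library's own number for 4 of 12 libraries. Of 946 recomputed values for 68 named genes, 904 kept direction and side of the threshold and 41 newly passed it. Col1a1 changed sign without 2D-EV replicate 3, to −0.052 (adjusted p = 0.919, edgeR), in a range of −0.052 to 0.135 with 1 library left out. Depth limits genes near the floor of 3 counts, and 3 libraries a group limit what can be called.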

Other observations

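Of the 24 genes with a 3-fold range inside a group, the examples looked at did not all share a single order of libraries. They were picked after their values were seen. Dohh, which encodes the enzyme that completes hypusine on eIF5A, had 10.9, 10.0 and 60.2 CPM in 3D-EV libraries, against 62.4, 10.9 and 73.9 CPM in 2D-EV libraries. Sema3b, a semaphorin gene, had 43.7, 3.67 and 51.5 CPM with 3D-EVs, against 51.3, 3.71 and 2.84 CPM with 2D-EVs. Tmem263 had 22.8, 146 and 147 CPM with 3D-EVs, against 140, 39.4 and 30.8 CPM with 2D-EVs. In these 6 libraries Tmem263 was low where Mterf2 was high, and the reverse. Control replicate 3 had the same split, at 35.1 CPM of Tmem263 and 112 CPM of Mterf2. The cause of these levels was not tested.

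Trim39, an E3 ubiquitin ligase gene, had 8.91, 8.77 and 8.60 CPM with 3D-EVs, against 27.8, 9.86 and 9.95 CPM with 2D-EVs, with 1 2D-EV library apart and a log2 fold change of −0.86. B2m, the light chain of class I histocompatibility molecules, had 1280, 1382 and 1412 CPM with 3D-EVs, against 1288, 1247 and 1194 CPM with 2D-EVs. Its groups overlapped, and its log2 fold change was 0.13 (adjusted p = 0.598, edgeR). In its list of interferon response and antigen presentation, 40.6% of 32 tested members were above 0, with a median of −0.04. At an unadjusted p below 0.05, 3 were higher and 3 lower, beside 3.31% and 3.59% of all genes. Nqo1 and Tkt, targets of the oxidative stress factor NRF2, were at log2 fold changes of −0.12 and −0.10, with 3D-EV libraries below 2D-EV libraries for both genes and an adjusted p of 0.598 each by the edgeR quasi-likelihood test. Over the list of NRF2 and oxidative stress genes, 40% of 30 tested members were above 0 and the median was −0.009. The 3D-EV libraries lay below for these 2 members and above for 0, beside 5.68% and 5.67% of all genes.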
